A study of Mus musculus with 16 samples.

Results

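Normal mouse epidermis was compared between newborn pups (postnatal day 0, P0) and embryos at stage E13.5. The RNA-Seq libraries come from a study of the centriole gene *Sas-4* and were chosen for intact *Sas-4* by their titles or by their column names. The comparison used 12 of the 16 libraries: the 4 P0 libraries titled control and, one set after the other, both sets of 4 E13.5 libraries, because the titles and the column names of the E13.5 libraries give opposite genotypes. All P0 controls were *Sas-4* fl/wt, replicates 2 and 3 also carried *K14-Cre* tg/wt, and replicates 1 and 4 were *K14-Cre* wt/wt. The E13.5 libraries titled control are given as *K14-Cre* wt/wt and *Sas-4* fl/wt and their columns end in "mut", whereas those titled mutant are given as *K14-Cre* tg/wt and *Sas-4* fl/fl and their columns end in "ctrl". The sample labels give the strain as FVB/C57BL6, whereas the study's methods name FVB/NRj. *K14-Cre* is active in keratinocytes of stratified epithelia, so that fl/wt carriers keep 1 intact *Sas-4* allele in keratinocytes, fl/fl carriers keep none, and cells of other types are not recombined. By the labels the P0 samples were back-skin keratinocytes dissociated with TrypLE after a night in dispase, whereas the study's methods name trypsin for that step. The E13.5 samples were sheets lifted off with trypsin and pancreatin. Stage, preparation, sequencing run and table changed together, and their effects cannot be told apart. Nothing states that the 4 libraries of a group came from separate animals, so the p-values measure only the spread between these libraries.

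At E13.5 the epidermis is a basal layer with the first suprabasal cells under a transient cover, the periderm, and hair placodes are about to form. By birth it has a basal layer, keratin 1- and keratin 10-positive spinous layers, a granular layer filled with profilaggrin and loricrin, and a cornified barrier, and follicles of the earliest wave have grown a shaft and root sheaths. Cells leave the basal layer by lowering integrins and keratins 5 and 14, and the cornified envelope is then cross-linked by transglutaminases and sealed with ceramide lipids.

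Both readings of the E13.5 labels were used because the targeted gene did not separate them in the direction of the titles. *Cenpj*, the mouse name of *Sas-4*, had 6.78, 5.18, 5.06 and 7.08 TPM at P0, against 6.8, 6.59, 6.21 and 6.27 TPM in E13.5 libraries titled control and 16.7, 15.5, 16.4 and 15.8 TPM in those titled mutant. The libraries titled mutant thus had the highest level, and the P0 controls lay beside the libraries titled control, with a log2 fold change of -0.10 ± 0.11 and -1.29 ± 0.11 (adjusted p = 0.43 and 2.2e-06). That comparison crosses stage, and the median change over a list of 16 centriole genes was -0.84 and -0.95. Nearness to the P0 level therefore does not tell which E13.5 set had intact *Sas-4*. *Cdkn1a*, the p53-induced CDK inhibitor p21, had 143, 172, 168 and 148 TPM at P0, against 117, 92.9, 129 and 126 TPM in E13.5 libraries titled control and 14.5, 16.6, 9.01 and 11 TPM in those titled mutant. The summed level of 20 p53 target genes was 642 to 777 TPM at P0, 1720 to 2065 TPM in the libraries titled control and 777 to 809 TPM in those titled mutant. A gene is therefore reported as higher or lower at P0 only where it was called against both E13.5 sets.

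Levels are given in TPM, the FPKM of a gene divided by the FPKM sum of its library and brought to the same total in every library. FPKM, fragments per kilobase and depth, is the deposited unit, and the number of reads is unknown. Relative depth, read from the lowest values, was 0.85 to 1.04 times that of the first P0 library. Between 12952 and 13189 genes reached 1 FPKM in the P0 libraries, against 12726 to 12889 at E13.5. Keratins made up 4.96% to 6.03% of all TPM at P0, against 0.458% to 0.604% at E13.5, and the 100 most abundant genes 37.5% to 38.8%, against 28.1% to 30.9%. A log2 fold change is P0 minus E13.5 on log2(TPM + 1), given with its SE first against the libraries titled control and then against those titled mutant (n = 4 per group), with the Benjamini-Hochberg adjusted p-values of limma in the same order. Where 2 ranges of TPM follow the words P0 and against, the first is of the libraries titled control and the second of those titled mutant, and a single range covers all 8. The log2(TPM + 1) scale understates the change of genes with low levels. The median over all genes tested was -0.31 and -0.35, so single changes are to be read against that shift. Under median-of-ratios scaling, which is also used below, that median was 0.002 and 0.011.

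A gene was called where its adjusted p was at most 0.05 and its change at least 2-fold. Against the libraries titled control, 1619 of 13465 genes (12%) were called higher at P0 and 1901 (14.1%) lower. Against those titled mutant, whose columns end in "ctrl", 1539 of 13527 (11.4%) were higher and 2094 (15.5%) lower. In both comparisons, which share the 4 P0 libraries, 1414 of 13312 genes (10.6%) were higher and 1572 (11.8%) lower. Of the 1414, 632 passed the filter on low values only through the P0 libraries, and of the 1572, 286 only through the E13.5 libraries. Of all genes called in both comparisons, 47.4% were higher at P0. That share was 59.7% with FPKM as deposited, 69.4% with median-of-ratios scaling, 58.2% after quantile normalization and 59.0% with the 100 most abundant genes left out of the total. Under all 5 scalings 1375 genes (10.3%) were higher and 772 (5.8%) lower. Changes of at least 16-fold were found in 156 genes that were higher and 19 that were lower.

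**Figure D1:**
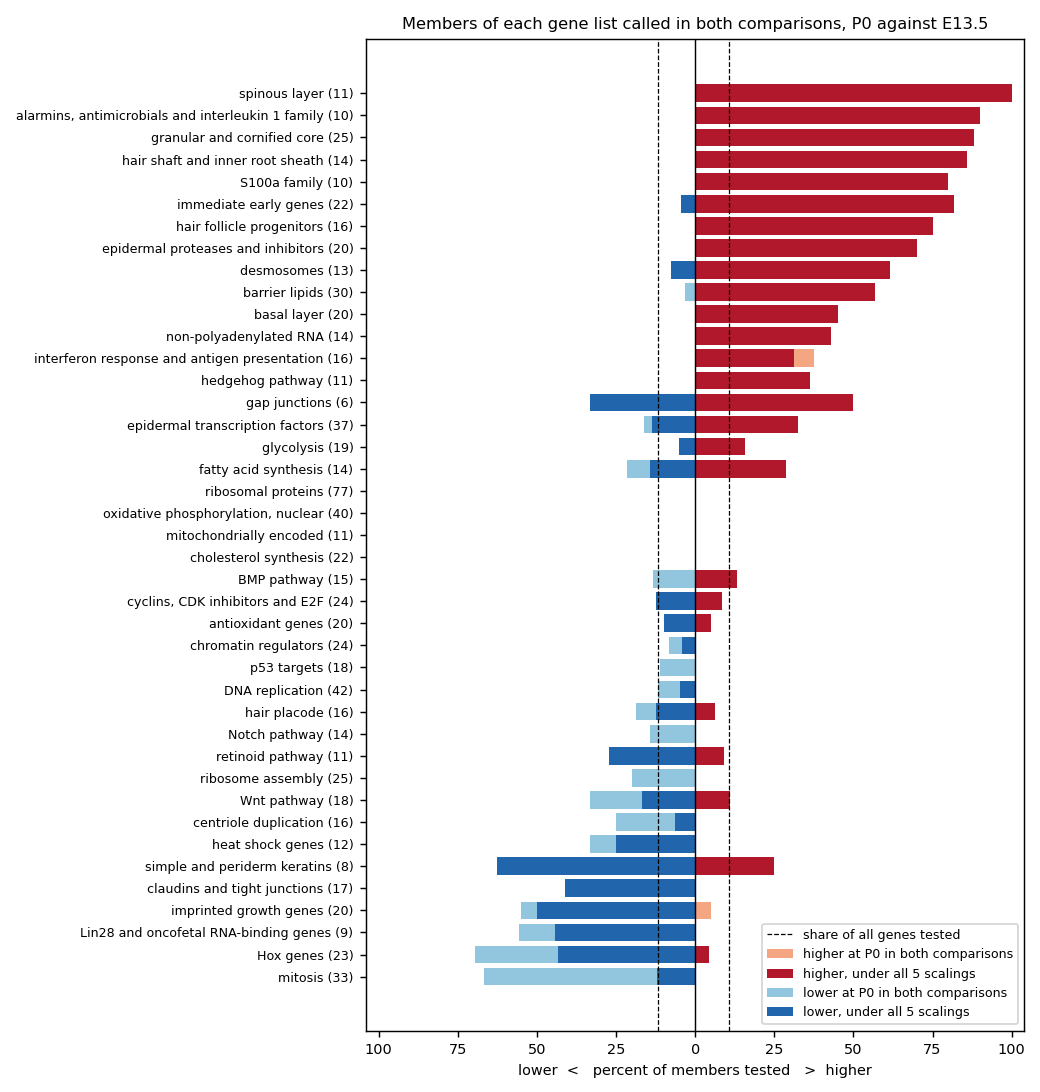
Percent of the tested members of each gene list that were called in both comparisons, with those higher at P0 to the right and those lower at P0 to the left, dark where the call held under all 5 scalings; the number of members tested stands behind each name. Dashed lines mark the share of all genes tested (10.6% higher and 11.8% lower), and the spinous list has all 11 tested members to the right while the mitosis list has 22 of 33 to the left, 4 of them dark.

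All 11 tested spinous genes were higher at P0, against 10.6% of all genes tested, and the list medians were 4.96 and 4.45 on the log2 scale. Among the 11, 1 passed the filter only through the P0 libraries. *Krt1*, the type II keratin of the spinous layer (chr15:101845428-101850786 in mm10), had 10078, 8705, 12000.0 and 13092 TPM at P0, against 32.3, 35.5, 29.4 and 41.9 TPM in E13.5 libraries titled control and 190.3, 210.5, 71.9 and 110.4 TPM in those titled mutant. Its fold change was 8.26 ± 0.14 and 6.33 ± 0.31 (adjusted p = 1.5e-10 and 8.5e-08) on the log2 scale, and within E13.5 the libraries titled mutant were above those titled control. *Krt10*, its type I partner (chr11:99385254-99389364), had 9979, 9108, 12222 and 14058 TPM at P0, against 154, 154, 138 and 212 TPM in E13.5 libraries titled control and 422, 443, 200.0 and 266 TPM in those titled mutant. In bulk samples a change in the number of cells of a layer and in RNA per cell cannot be told apart. The groups did not overlap for either keratin, and *Krt10* changed by 6.10 ± 0.16 and 5.14 ± 0.25 (adjusted p = 1.3e-09 and 8.5e-08). *Ptgs1*, which encodes cyclooxygenase 1, was at 64.9 to 82.5 TPM at P0, against 0.361 to 1.86 and 0.308 to 1.46 TPM at E13.5. *Krt78* was at 16 to 43.9 TPM at P0, against 0.0583 to 0.129 and 0.0683 to 0.0912 TPM at E13.5. *Dsc1*, the desmocollin of suprabasal cells, was at 64.5 to 99.4 TPM at P0, against 0.928 to 2.32 and 1.67 to 3.68 TPM at E13.5.

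Basal genes were higher as well, by less. Of 20 basal genes tested, 9 were higher at P0, and the median of the list was 0.97 and 0.77. *Krt5*, the basal type II keratin (chr15:101707070-101712891), had 15979, 13582, 14291 and 14630.0 TPM at P0, against 2175, 2291, 2139 and 1999 TPM in E13.5 libraries titled control and 2439, 2238, 1834 and 1956 TPM in those titled mutant. *Krt14*, its type I partner (chr11:100203162-100207548), had 12773, 10578, 12051 and 11011 TPM at P0, against 1710.2, 1869.9, 1759 and 1603 and then 1814, 1733, 1650.5 and 1759.7 TPM at E13.5, a change of 2.74 ± 0.07 and 2.73 ± 0.07 (adjusted p = 1.8e-09 and 2.0e-09). The 8 E13.5 libraries lay within a narrow range for both genes and far from the P0 libraries. *Krt15*, another basal type I keratin, was at 2203 to 2711 TPM at P0, against 311 to 489 and 487 to 697 TPM at E13.5. *Lamb3*, a chain of the laminin that anchors basal cells, changed by 3.32 ± 0.10 and 3.45 ± 0.08 (adjusted p = 2.6e-09 and 2.0e-09). The hyaluronan receptor *Cd44* changed by 2.58 ± 0.12 and 2.92 ± 0.12 (adjusted p = 5.6e-08 and 3.8e-08). *Col17a1*, the hemidesmosomal collagen, was at 515 to 633 TPM at P0, against 56.7 to 58.8 and 89.4 to 108 TPM at E13.5. The integrin *Itga6*, a receptor for that laminin, changed by 0.80 ± 0.06 and 0.72 ± 0.08 (adjusted p = 1.0e-06 and 2.6e-05). Its partner *Itgb4* changed by 0.64 ± 0.06 and 0.65 ± 0.05 (adjusted p = 2.8e-06 and 8.3e-07), and both stayed under the 2-fold threshold. *Trp63*, the master transcription factor of stratified epithelia, was at 221 to 245 TPM at P0, against 209.5 to 218 and 268 to 282 TPM at E13.5, and its change of 0.10 ± 0.04 and -0.25 ± 0.04 (adjusted p = 0.05 and 1.9e-04) had opposite signs against the 2 E13.5 sets.

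The balance of layers was also read as the ratio of 2 keratins inside each library, taken on TPM + 1, in which a factor that scales a whole library cancels, apart from the added 1. *Krt1* was 0.631 to 0.895 times *Krt5* at P0, against 0.0142 to 0.0214 times in the libraries titled control and 0.0397 to 0.0945 times in those titled mutant. *Krt10* was 0.781 to 1.28 times *Krt14* at P0, against 0.0792 to 0.133 and 0.122 to 0.256 times at E13.5. On the log2 scale these ratios differed by 5.49 and 3.54 for *Krt1* and *Krt5* and by 3.36 and 2.41 for *Krt10* and *Krt14*. The simple keratin ratios went the other way, by -5.05 and -4.24 for *Krt8* to *Krt5* and by -6.31 and -5.52 for *Krt18* to *Krt14*. Each of these 8 differences had p = 0.0286 in an exact two-sided permutation test, the smallest value that 4 against 4 libraries allow, and an adjusted p of 0.0312 over 12 differences. The ratio of *Krt15* to *Krt14* differed by 0.03 from the libraries titled control (exact permutation p = 0.943) and by -0.63 from those titled mutant (exact permutation p = 0.0286, adjusted p = 0.0312).

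**Figure D2:**
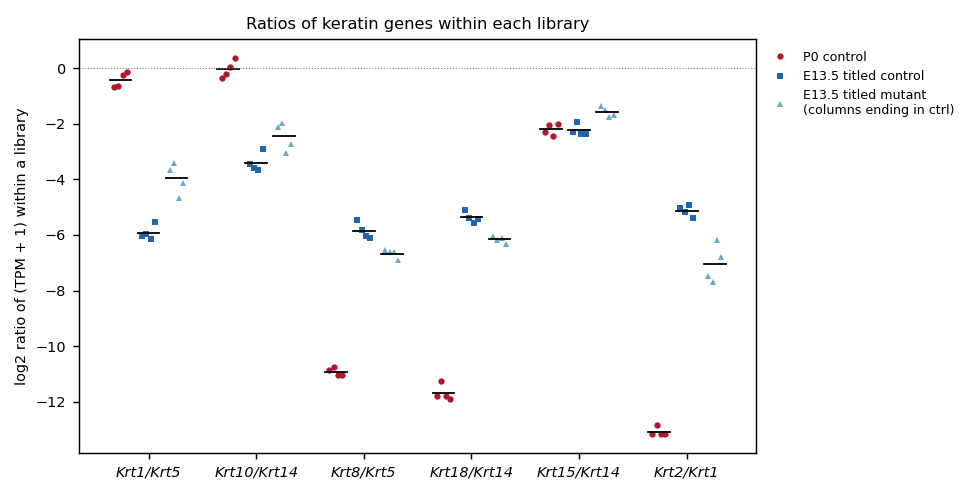
Log2 ratio of (TPM + 1) of the first keratin to the second within each library, 1 point per library, with black bars at group means. The P0 points of *Krt1* to *Krt5* and *Krt10* to *Krt14* lie above both E13.5 sets, those of *Krt8* to *Krt5* and *Krt18* to *Krt14* lie below, and those of *Krt15* to *Krt14* overlap the libraries titled control.

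Of the 25 granular and cornified genes tested, 22 were higher at P0, and 15 of the 25 passed the filter only through the P0 libraries. The list summed to 4983 to 6965 TPM at P0, against 302 to 350 TPM in the libraries titled control and 283 to 517 TPM in those titled mutant. *Lor*, which encodes loricrin, the main protein of the cornified envelope (chr3:92080271-92083142), had 120.1, 196, 331 and 528 TPM at P0, against 8.15, 7.35, 5.1 and 4.9 TPM in E13.5 libraries titled control and 7.22, 8.1, 7.36 and 8.45 TPM in those titled mutant. *Flg*, the profilaggrin gene that packs keratin in granular cells (chr3:93273523-93293686), had 129, 185, 308 and 583 TPM at P0, against 0.0432, 0, 0.0481 and 0 TPM in E13.5 libraries titled control and 0, 0.0506, 0 and 0.0195 TPM in those titled mutant. *Ivl*, an early envelope scaffold, had 12.2, 22.9, 32.8 and 51.4 TPM at P0, against 1.06, 0.875, 1.63 and 1.35 TPM in E13.5 libraries titled control and 1.27, 1.52, 0.491 and 0.687 TPM in those titled mutant, a change of 3.63 ± 0.35 and 3.81 ± 0.38 (adjusted p = 6.6e-06 and 7.9e-06). The P0 libraries spread widely here, and replicate 1 had the lowest and replicate 4 the highest value of all 3 genes. *Calm4*, which encodes a calmodulin-related protein of differentiating keratinocytes, was at 1449 to 1856 TPM at P0, against 0.595 to 1.67 TPM at E13.5. *Calm5* was at 52.7 to 67.6 TPM at P0, against 0.052 to 0.201 TPM at E13.5. *Cnfn*, the envelope component cornifelin, changed by 5.11 ± 0.27 and 5.39 ± 0.22 (adjusted p = 1.1e-07 and 3.3e-08). *Tgm1*, a membrane-bound transglutaminase of granular cells, was not called, with 24.2 to 41.8 TPM at P0, against 35.6 to 39.7 and 30.2 to 44.1 TPM at E13.5.

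No late cornified envelope gene reached 1 FPKM in 4 libraries, so none was tested with the filter on low values. With no filter 10 were called higher in both comparisons. *Lce1m* had 1.37, 11.3, 11.1 and 3.32 TPM at P0 and *Lce1a1* 0.94, 11.1, 8.20 and 2.59 TPM, and both are listed at 0 in all 8 E13.5 libraries. The sum over the 21 genes of the family was 7.99 to 73.8 TPM at P0, with the 2 *K14-Cre* carriers highest, against 0.132 to 2.29 TPM in the libraries titled control and 0 TPM in those titled mutant. Of the small proline-rich envelope genes, *Sprr1a* was at 57 to 91.1 TPM at P0, against 5.84 to 6.73 and 2.81 to 6.6 TPM at E13.5. *Sprr1b* was at 18.6 to 148 TPM at P0, against 1.2 to 2.73 and 0.336 to 2.47 TPM at E13.5.

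**Figure D3:**
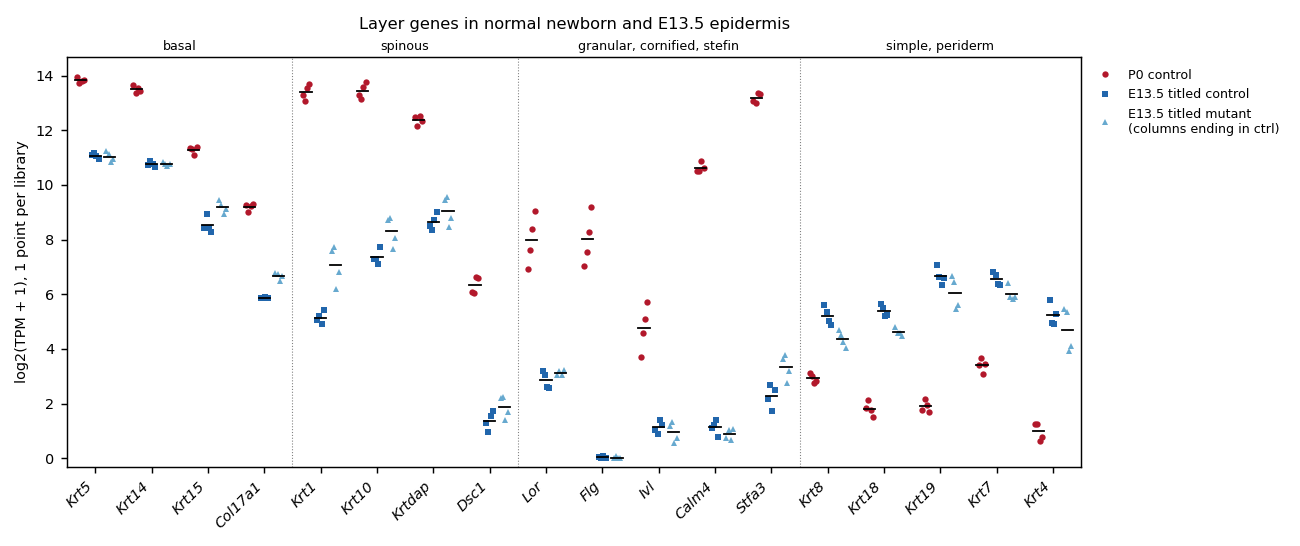
Log2(TPM + 1) of layer genes in each library, with P0 controls left, E13.5 libraries titled control in the middle and those titled mutant right, and black bars at group means. Basal, spinous and cornified genes lie higher at P0, the simple and periderm keratins on the right lie lower, and *Lor*, *Flg* and *Ivl* spread widely among the 4 P0 libraries.

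The 10 largest rises included 4 neighbouring genes of the stefin A cluster on chromosome 16. Stefins inhibit cathepsin-type cysteine proteases. *Stfa3* (chr16:36450537-36455392) had 8507, 8217, 10529 and 10279 TPM at P0, against 3.49, 5.46, 2.31 and 4.6 TPM in E13.5 libraries titled control and 11.5, 12.9, 5.73 and 8.19 TPM in those titled mutant. *BC100530* (chr16:36359382-36367748) had 4185, 3538, 4479 and 3263 TPM at P0, against 0.763, 0.899, 0 and 0.694 TPM in E13.5 libraries titled control and 2.67, 2.34, 1.64 and 1.82 TPM in those titled mutant, and *BC117090* (chr16:36321665-36334332) was at 619.9 to 1377 TPM at P0, against 0 to 0.186 and 0 to 1.19 TPM at E13.5. *Stfa2* (chr16:36403946-36408363) was at 204 to 412 TPM at P0, is listed at 0 in the libraries titled control and did not exceed 0.194 TPM in those titled mutant. A sister gene, *Stfa1*, had 3.31, 1.64, 2.75 and 1066 TPM at P0, against 1.02, 0, 0.481 and 0 and then 0 TPM at E13.5, so that 1 P0 library alone was high, and it was not called. These genes are close copies, and the counting could have split or shared reads among them, so the level of each single copy is uncertain. *Ly6d*, a surface protein of stratified epithelia, was also among the 10 largest rises, with a change of 9.14 ± 0.14 and 9.52 ± 0.31 (adjusted p = 9.1e-11 and 1.1e-08). *Lgals3*, which encodes galectin 3, changed by 7.82 ± 0.14 and 7.69 ± 0.13 (adjusted p = 1.9e-10 and 3.1e-10). *Krt79*, a keratin of the follicle opening, changed by 9.54 ± 0.06 and 9.37 ± 0.10 (adjusted p = 3.2e-13 and 2.1e-11) and was at 799 to 926 TPM at P0, against 0.0765 to 0.2 and 0.0668 to 0.5 TPM at E13.5.

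The promoters of 3 layer genes and 2 stefins are printed beside that of *Cdk1*, a mitotic gene described further on, so that promoters of genes that rose and of a gene that was lower can be set side by side. Each line gives the 100 bases before the RefSeq start of the gene in GRCm38.p6, 5′ to 3′ on the strand of the gene, and capitals mark letters that match one of a few short motifs on either strand. These are the TATA-box letters TATAAA with a variant TTTAAA, the AP-1 letters TGACTCA, the CHR letters TTTGAA of cell cycle promoters and the NF-Y letters CCAAT.
*Lor*, chr3:92083143-92083242, minus strand: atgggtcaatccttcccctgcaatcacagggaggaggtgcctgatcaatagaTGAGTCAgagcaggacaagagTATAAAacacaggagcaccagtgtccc
*Krt10*, chr11:99389365-99389464, minus strand: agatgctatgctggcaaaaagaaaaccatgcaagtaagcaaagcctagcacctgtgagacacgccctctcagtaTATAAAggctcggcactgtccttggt
*Flg*, chr3:93273446-93273545, plus strand: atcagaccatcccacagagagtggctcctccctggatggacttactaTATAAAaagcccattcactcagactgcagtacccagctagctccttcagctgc
*Stfa3*, chr16:36455393-36455492, minus strand: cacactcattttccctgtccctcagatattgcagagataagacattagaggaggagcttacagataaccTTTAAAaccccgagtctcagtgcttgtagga
*Stfa2*, chr16:36408364-36408463, minus strand: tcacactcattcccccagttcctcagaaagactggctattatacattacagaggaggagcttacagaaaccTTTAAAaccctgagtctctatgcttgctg
*Cdk1*, chr10:69352913-69353012, minus strand: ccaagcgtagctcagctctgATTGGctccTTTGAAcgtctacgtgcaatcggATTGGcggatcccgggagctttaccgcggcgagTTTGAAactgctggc

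In the loricrin promoter the TATAAA lies at -27 to -22 from the start and TGAGTCA, the reverse complement of TGACTCA, at -48 to -42. The TATAAA of *Krt10* lies at -26 to -21 and that of *Flg* at -53 to -48, counted from a RefSeq start that lies inside the *Flg* span of the tables, so that the end of the printed stretch overlaps that span. The stefin promoters share TTTAAA, at -31 to -26 in *Stfa3* and at -29 to -24 in *Stfa2*, and 78 of their 103 aligned positions (75.7%) are identical. *Cdk1*, the mitotic kinase, has 2 TTTGAA and 2 ATTGG matches, and ATTGG is CCAAT read from the other strand. Over RefSeq promoters of 300 bases (250 before and 50 after the start), which matched 9700 tested genes, TATAAA was found in 27.4% of the 106 matched genes that were at least 16-fold higher at P0, in 13.2% of 962 genes higher under all 5 scalings, in 6.37% of 518 lower under all 5, in 6.78% of all tested genes and in 13.6% of the 32851 promoters of the table. TGACTCA, the letters bound by AP-1 factors, was found in 11.3%, 6.34%, 2.32%, 3.27% and 5.2% of the same sets. TTTAAA was found in 10.4%, 10.1%, 8.69%, 8.94% and 13.2%, and in 31.0% of the 29 matched promoters of the mitosis list. TTTGAA and CCAAT each occurred in 75.9% of the 29 matched promoters of the mitosis list, against 11.8% and 39.0% of all tested genes and 17.9% and 37.4% of the table. GGGCGG, the letters bound by Sp1, was found in 34.9% of the genes at least 16-fold higher, 52.8% of those higher and 63.7% of those lower under all 5 scalings, 65.9% of all tested genes and 35.7% of the table. Both strands were searched, and matches of different motifs can overlap. A match describes letters and does not show that a factor was bound.

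Enzymes and lipids of the barrier followed the cornified genes. Of 20 proteases and inhibitors tested, 14 were higher at P0, and 5 of the 20 passed the filter only through the P0 libraries. *Klk5*, a kallikrein that sheds corneocytes, was at 54.1 to 109 TPM at P0, against 0.0398 to 1.1 TPM at E13.5. *Klk7*, which acts with it, was at 40.5 to 99.5 TPM at P0, against 0 to 0.146 TPM at E13.5. *Klk11*, another kallikrein, changed by 4.91 ± 0.10 and 4.63 ± 0.22 (adjusted p = 2.7e-10 and 8.0e-08). *Serpinb5*, which encodes maspin, was at 461 to 564 TPM at P0, against 5.23 to 7.04 and 7.75 to 13.6 TPM at E13.5. Of 30 barrier lipid genes tested, 6 of which passed the filter only through the P0 libraries, 17 were higher, and the ceramide glucosyltransferase *Ugcg* was lower, though not under all 5 scalings. *Acer1*, the alkaline ceramidase of suprabasal cells, was at 28.9 to 43.7 TPM at P0, against 0 to 0.0185 TPM at E13.5. *Alox12b*, the lipoxygenase that starts the covalent lipid envelope, had 11.4, 10.5, 22.4 and 23.6 TPM at P0 and is listed at 0 in all 8 E13.5 libraries. *Sult2b1*, the cholesterol sulfotransferase, changed by 3.24 ± 0.10 and 3.52 ± 0.17 (adjusted p = 5.2e-09 and 7.7e-08). The fatty acid elongase *Elovl7* changed by 3.15 ± 0.11 and 3.19 ± 0.11 (adjusted p = 6.7e-09 and 1.5e-08).

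Among the S100a genes, calcium-binding proteins encoded in the same chromosomal region as the envelope genes, 8 of 10 tested were higher at P0, and 2 of the 10 passed the filter only through the P0 libraries. *S100a14* was at 884 to 961 TPM at P0, against 117 to 136 and 71.4 to 124 TPM at E13.5. *S100a6* was at 295 to 580.3 TPM at P0, against 13.54 to 23.8 and 4.39 to 6.68 TPM at E13.5. *S100a4* was at 32.8 to 53.5 TPM at P0, against 0.263 to 1.25 and 0 to 5.9e-05 TPM at E13.5. *S100a3*, expressed in hair cuticle, was at 11.9 to 33.9 TPM at P0, against 0.37 to 0.524 and 0.0346 to 0.134 TPM at E13.5. For these 4 genes every P0 library lay above every E13.5 library. Of 10 tested alarmin, antimicrobial and interleukin 1 family genes, 9 were higher, 7 of the 10 having passed the filter only through the P0 libraries. *Il1rn*, the interleukin 1 receptor antagonist, was at 44.4 to 62 TPM at P0, against 0.372 to 0.702 and 0.333 to 0.987 TPM at E13.5. *Il1f5*, the interleukin 36 receptor antagonist, was at 40.0 to 72.6 TPM at P0, against 1.12 to 1.79 and 2.07 to 3.03 TPM at E13.5. The defensin *Defb1* was at 17.7 to 26.1 TPM at P0, against 0.561 to 1.41 and 0.823 to 1.48 TPM at E13.5. *Il1f9* was at 6.88 to 9.52 TPM at P0, against 0.0484 to 0.451 and 0.0876 to 0.379 TPM at E13.5.

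Keratins of simple epithelia and periderm divided. Of 8 tested, 5 were lower at P0 and 2 higher, and 1 of the 8 passed the filter only through the E13.5 libraries. *Krt8*, a type II keratin of simple epithelia, had 7.62, 6.99, 5.83 and 6.07 TPM at P0, against 47.8, 39.9, 31.5 and 28.1 TPM in E13.5 libraries titled control and 25, 21.7, 17.9 and 15.5 TPM in those titled mutant. *Krt18*, its partner, had 2.62, 3.37, 2.43 and 1.88 TPM at P0, against 48.8, 44, 36.3 and 36.5 TPM in E13.5 libraries titled control and 26.8, 22.8, 23.1 and 21.1 TPM in those titled mutant, and changed by -3.57 ± 0.14 and -2.78 ± 0.13 (adjusted p = 1.7e-08 and 6.4e-08). For both genes the libraries titled control were the highest of all 12. *Krt19*, which also marks periderm, was at 2.26 to 3.5 TPM at P0, against 80.6 to 134 and 42.8 to 99.7 TPM at E13.5. *Krt4*, a keratin of internal stratified epithelia, was at 0.564 to 1.41 TPM at P0, against 29.2 to 54.4 and 14 to 42.7 TPM at E13.5. *Krt17*, a keratin of follicle, periderm and wounded skin, rose by 3.81 ± 0.16 and 4.27 ± 0.09 (adjusted p = 2.2e-08 and 1.2e-09). *Krt6a*, found in the same places, rose by 3.77 ± 0.32 and 4.68 ± 0.30 (adjusted p = 2.4e-06 and 4.5e-07). *Krt6a* has near-identical copies, so its level is uncertain. Across all keratin genes, 24 of 30 tested were higher and 5 lower, each also under all 5 scalings.

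Junction genes changed by class. Among 17 genes of claudins and tight junctions, 1 of which passed the filter only through the E13.5 libraries, 7 were lower at P0 under all 5 scalings. *Cldn6*, a claudin of embryonic epithelia, had 1.12, 0.665, 0.571 and 0.54 TPM at P0, against 109, 106, 98.7 and 106 TPM in E13.5 libraries titled control and 73.4, 63.6, 85.9 and 74.6 TPM in those titled mutant, the largest fall of the list at -5.95 ± 0.10 and -5.46 ± 0.12 (adjusted p = 1.7e-10 and 1.5e-09). *Cldn3* was at 0.894 to 2.84 TPM at P0, against 29.3 to 52.5 and 24 to 34.1 TPM at E13.5. *Cldn8* was at 2.67 to 3.87 TPM at P0, against 15.3 to 17.9 and 15.3 to 16.7 TPM at E13.5. *Cldn23* was at 1.49 to 7.79 TPM at P0, against 15 to 27.6 and 13.9 to 18.1 TPM at E13.5, and for these 4 claudins no P0 library reached an E13.5 library. *Cldn1*, the claudin on which the granular tight junction depends, was at 93.9 to 103 TPM at P0, against 36.9 to 39.9 and 56.4 to 60.0 TPM at E13.5, called higher only against the libraries titled control. Of 13 desmosomal genes, 8 were higher, and *Dsc2*, the desmocollin of simple epithelia, was lower, with 6.17 to 7.22 TPM at P0, against 31 to 39.7 and 27.7 to 37.8 TPM at E13.5. The suprabasal desmoglein *Dsg1a* was at 147 to 203 TPM at P0, against 4 to 4.89 and 5.95 to 13 TPM at E13.5. The plakophilin *Pkp1* was at 701 to 859 TPM at P0, against 100.7 to 108 and 143 to 181 TPM at E13.5. The basal desmocollin *Dsc3* was at 293 to 342 TPM at P0, against 35.2 to 44.4 and 51.9 to 82.2 TPM at E13.5. Gap junction genes split by gene within the list of 6, of which 2 passed the filter only through the P0 libraries. *Gjb2*, which encodes connexin 26, was at 62.5 to 86.4 TPM at P0, against 373 to 482 and 439 to 539 TPM at E13.5. *Gjb6*, which encodes connexin 30, was at 16.5 to 23.1 TPM at P0, against 231 to 274 and 263 to 320.1 TPM at E13.5. Both were lower in every P0 library than in every E13.5 library. The connexin gene *Gjb5* was at 19.1 to 37.4 TPM at P0, against 1.07 to 1.36 and 0.25 to 0.669 TPM at E13.5, higher in every P0 library.

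Follicle genes were higher at P0 beside a mixed set of placode genes. Of 16 tested follicle progenitor genes, 12 were higher, and 6 of the 16 passed the filter only through the P0 libraries. *Lhx2*, a transcription factor of bulge precursors, had 137, 115, 117 and 108 TPM at P0, against 0.454, 0.505, 0.332 and 0.273 TPM in E13.5 libraries titled control and 1.25, 1.58, 0.552 and 0.78 TPM in those titled mutant. *Nfatc1*, of the same compartment, was at 31.9 to 37.9 TPM at P0, against 0.207 to 0.393 TPM at E13.5. The T-box factor *Tbx1* was at 16.1 to 24.7 TPM at P0, against 0.0666 to 0.481 TPM at E13.5, and the vitamin D receptor *Vdr* at 28.8 to 35.4 TPM at P0, against 1.16 to 1.73 and 1.8 to 2.4 TPM at E13.5. *Sox9*, which marks the outer root sheath, was at 26 to 36.7 TPM at P0, against 9.43 to 11.3 and 10.5 to 14.8 TPM at E13.5. Of 14 tested genes of hair shaft and inner root sheath, 12 were higher, 7 of the 14 having passed the filter only through the P0 libraries. *Krt25*, an inner root sheath keratin, had 20.2, 69.8, 41.9 and 67.6 TPM at P0 and is listed at 0 in all 8 E13.5 libraries. *Krt27*, of the same sheath, was at 14.4 to 70.9 TPM at P0, against 0 to 0.153 TPM at E13.5, *Krt28* at 27.2 to 55.1 TPM at P0, against 0.029 to 0.249 TPM at E13.5, and *Krt73* at 26.9 to 46 TPM at P0, against 0 to 0.0675 TPM at E13.5. The summed shaft and sheath level was 393.7, 643, 413 and 622 TPM in the 4 P0 libraries, against 91.6 to 102 TPM at E13.5, so the P0 libraries differed among themselves.

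Of 16 placode genes, 1 was higher and 3 lower at P0, 2 of the 3 under all 5 scalings. Over all genes tested, 10.6% were higher and 11.8% lower. Under median-of-ratios scaling 3 placode genes were higher and 2 lower, so these counts show no direction for the list. Among the 16, 1 passed the filter only through the P0 libraries. The median of the list, -0.23 and -0.30, turned to 0.08 and 0.06 under median-of-ratios scaling. *Dkk4*, an early placode Wnt antagonist, had 11.3, 11, 11.6 and 7.73 TPM at P0, against 41.8, 53.5, 47.1 and 53.3 TPM in E13.5 libraries titled control and 109.8, 100.6, 68.8 and 88.4 TPM in those titled mutant. *Lef1*, the nuclear partner of β-catenin, had 58.5, 47.4, 44.3 and 51 TPM at P0, against 192, 172, 175 and 169.7 TPM in E13.5 libraries titled control and 214, 214, 259.9 and 253 TPM in those titled mutant, and changed by -1.80 ± 0.08 and -2.20 ± 0.10 (adjusted p = 3.8e-08 and 4.6e-08). In the hedgehog pathway 4 of 11 genes were higher, and 1 of the 11 passed the filter only through the P0 libraries. *Shh*, the ligand made by the follicle tip (chr5:28456815-28467256), had 27.2, 22.1, 22.8 and 21 TPM at P0, against 0.0718, 0.228, 0.145 and 0.123 TPM in E13.5 libraries titled control and 1.11, 0.818, 0.287 and 0.638 TPM in those titled mutant. *Ptch1*, its receptor and transcriptional target, had 155, 138, 138 and 172 TPM at P0, against 6.9, 5.67, 5.88 and 6.14 TPM in E13.5 libraries titled control and 9.83, 11.4, 7.28 and 9.01 TPM in those titled mutant, a change of 4.41 ± 0.09 and 3.88 ± 0.12 (adjusted p = 2.7e-10 and 7.9e-09). *Gli1*, the target transcription factor, had 92.4, 81, 78 and 96.8 TPM at P0, against 3.03, 2.74, 3.08 and 3.58 TPM in E13.5 libraries titled control and 11.6, 14.6, 5.85 and 7.43 TPM in those titled mutant. All 3 genes were lower in the libraries titled control than in those titled mutant, and both E13.5 sets lay far below P0.

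**Figure D4:**
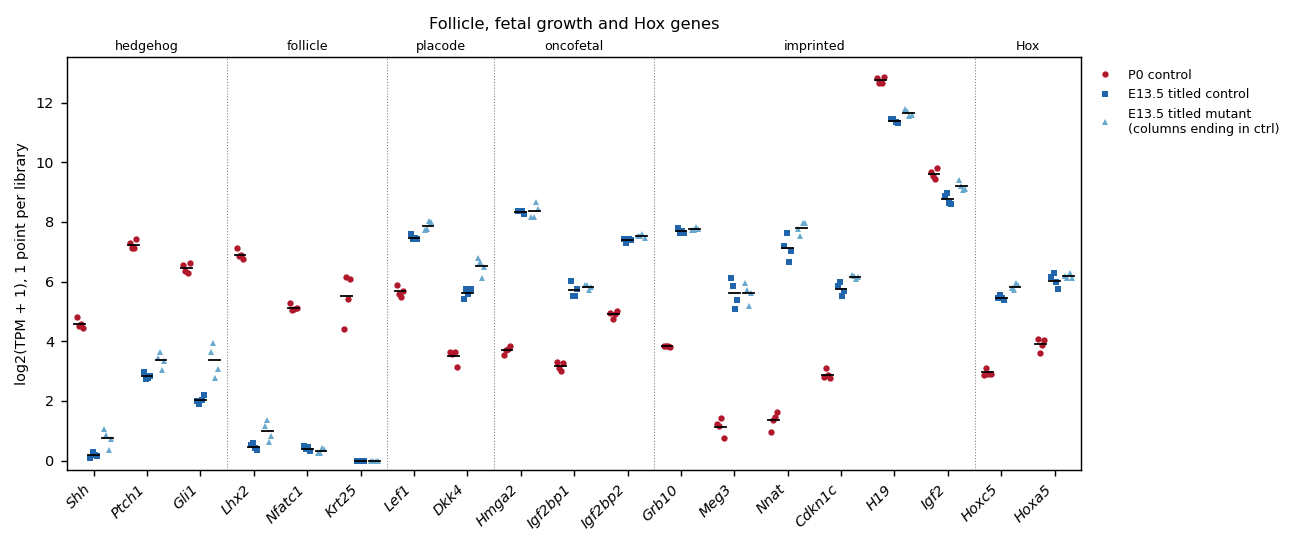
Log2(TPM + 1) of follicle, placode, oncofetal, imprinted and Hox genes in each library, with P0 controls left, E13.5 libraries titled control in the middle and those titled mutant right, and black bars at group means. Hedgehog and follicle genes lie higher at P0, oncofetal and Hox genes and most imprinted genes lower, while *H19* and *Igf2* lie higher at P0.

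In the Wnt, BMP and Notch lists most genes were not called in both comparisons. Over all genes tested 10.6% were higher and 11.8% lower, and the BMP counts, the Notch falls and the Wnt rises are near those shares. Of 18 Wnt genes, 6 were lower, 3 of them under all 5 scalings, and 2 were higher. Among the 18, 1 passed the filter only through the P0 libraries and 1 only through the E13.5 libraries. *Wnt9b* was at 0.269 to 0.339 TPM at P0, against 5.55 to 8.27 and 8.03 to 9.47 TPM at E13.5. *Wnt11* was at 4.6 to 8.35 TPM at P0, against 0.213 to 0.616 and 0.156 to 0.716 TPM at E13.5. *Wnt16* was at 51.2 to 56.6 TPM at P0, against 11.2 to 15.7 and 16.2 to 20.6 TPM at E13.5. Of 15 BMP pathway genes, 1 of which passed the filter only through the E13.5 libraries, 2 were higher under all 5 scalings and 2 lower under fewer. The ligand *Bmp4* was at 15.1 to 16.5 TPM at P0, against 4.41 to 5.58 and 3.26 to 5.97 TPM at E13.5. The receptor *Bmpr1b* was at 9.03 to 11.1 TPM at P0, against 21.9 to 27.9 and 24.8 to 26.8 TPM at E13.5. The antagonist *Nog* was at 0.248 to 0.388 TPM at P0, against 2.185 to 3.2 and 1.85 to 2.46 TPM at E13.5. Of 14 Notch genes, 2 were lower and neither call held under all 5 scalings. The ligand *Jag1* was at 28.2 to 32.6 TPM at P0, against 66.3 to 67.9 and 69.9 to 78.4 TPM at E13.5. The target *Hes1* was at 56.9 to 81.5 TPM at P0, against 142 to 164 and 182 to 195 TPM at E13.5. Among 37 epidermal transcription factors, 12 were higher and 6 lower. Of the 37, 5 passed the filter only through the P0 libraries and 1 only through the E13.5 libraries. *Hopx* was at 58.2 to 62.1 TPM at P0, against 5.47 to 7.93 and 4.06 to 8.66 TPM at E13.5. *Sox7* was at 6.05 to 8.88 TPM at P0, against 0.0243 to 0.191 TPM at E13.5. *Klf4*, a factor required for the barrier, changed by 2.64 ± 0.07 and 2.61 ± 0.10 (adjusted p = 2.2e-09 and 2.7e-08), whereas *Grhl3*, another barrier factor, changed by -1.67 ± 0.09 and -1.79 ± 0.09 (adjusted p = 8.8e-08 and 1.0e-07).

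Genes of mitosis were lower at P0, with a size that depended on the scaling. All 33 mitosis genes had every P0 library below every E13.5 library. How many of all genes separate in that way was not counted, but 1562 of the 1572 genes called lower in both comparisons did. With no share over all genes, the separation alone does not set the mitosis list apart. At the limma adjusted p alone, 7049 of all 13312 genes were lower in both comparisons. Of the 33 mitosis genes, 22 were called lower, against 11.8% of all genes tested. Under all 5 scalings 4 of the 33 were lower, against 5.8% of all genes tested. The list had medians of -1.13 and -1.15 that became -0.80 and -0.77 under median-of-ratios scaling. The summed level was 1848 to 2298 TPM at P0, against 4280 to 4387 TPM in the libraries titled control and 4280 to 4423 TPM in those titled mutant. *Cdk1*, the kinase that drives entry into mitosis, was at 165 to 203 TPM at P0, against 380.1 to 422 and 376 to 395 TPM at E13.5, lower though not under all 5 scalings. *Bub1*, a kinase of the spindle checkpoint, had 20.0, 20.1, 19.3 and 24.1 TPM at P0, against 78.7, 78.8, 79.1 and 74.3 TPM in E13.5 libraries titled control and 76.6, 74.5, 81.6 and 79 TPM in those titled mutant. Its partner *Bub1b* changed by -1.54 ± 0.07 and -1.48 ± 0.07 (adjusted p = 3.2e-08 and 7.7e-08). The survivin gene *Birc5* changed by -1.50 ± 0.04 and -1.46 ± 0.04 (adjusted p = 1.8e-09 and 2.6e-09). The kinetochore motor *Cenpe* changed by -1.36 ± 0.10 and -1.40 ± 0.10 (adjusted p = 9.9e-07 and 8.0e-07). *Mki67*, which encodes the Ki-67 antigen, was not called in both, with 46.3 to 73.6 TPM at P0, against 84 to 103 and 109.6 to 127 TPM at E13.5. Of 42 DNA replication genes 5 were called lower, a share near the 11.8% of all genes, and 2 of these under all 5 scalings. Each of the 42 was lower in every P0 library than in every E13.5 library, a separation not counted over all genes. The median of that list was -0.63 and -0.70, beside -0.31 and -0.35 over all genes. Under median-of-ratios scaling it was -0.29 and -0.32, beside 0.002 and 0.011 over all genes. The licensing factor *Cdc6* was at 10.8 to 12.8 TPM at P0, against 33.3 to 37.5 and 37.6 to 40.8 TPM at E13.5. *Mcm10* was at 12.7 to 15.4 TPM at P0, against 36.6 to 42.9 and 41.3 to 42.8 TPM at E13.5. The calls of *Gins3* and *Chaf1a* were lost in at least 1 scaling. Among cyclins, CDK inhibitors and E2F factors, 2 of 24 were higher and 3 lower, all under the 5 scalings, shares near the 10.6% and 11.8% of all genes. *Cdkn2c*, the inhibitor p18, was at 17.5 to 24.7 TPM at P0, against 4.93 to 6.83 and 5 to 7.01 TPM at E13.5. *E2f3* was at 13.3 to 13.4 TPM at P0, against 34.1 to 41.5 and 39.8 to 48.9 TPM at E13.5. *E2f7* was at 9.43 to 14.6 TPM at P0, against 29.2 to 39.4 and 30.3 to 35.2 TPM at E13.5. Of 16 centriole genes 4 were lower, and *Ccp110*, which caps the centriole end, was so under all 5 scalings, with 7.58 to 8.09 TPM at P0, against 23 to 26.1 and 21.6 to 23.5 TPM at E13.5. *Sass6*, the cartwheel protein that seeds the centriole, changed by -1.31 ± 0.12 and -1.34 ± 0.10 (adjusted p = 3.4e-06 and 1.1e-06), and its call was lost under at least 1 scaling.

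The list of Lin28 and oncofetal genes had 5 of 9 tested members lower at P0, 4 under all 5 scalings. Among the 9, 1 passed the filter only through the E13.5 libraries. *Hmga2*, a chromatin protein of fetal tissues and a target of the let-7 microRNAs (chr10:120361275-120476469), had 10.5, 12.2, 12.3 and 13.4 TPM at P0, against 328, 326, 327 and 304 TPM in E13.5 libraries titled control and 283, 286, 405 and 345 TPM in those titled mutant, with a change of -4.62 ± 0.07 and -4.65 ± 0.12 (adjusted p = 6.4e-11 and 2.5e-09). *Igf2bp1*, which binds *Igf2* mRNA, was at 7.04 to 8.84 TPM at P0, against 44.9 to 63.5 and 52.3 to 58.6 TPM at E13.5. Its relative *Igf2bp2* was at 26 to 31.7 TPM at P0, against 155 to 172 and 175 to 191 TPM at E13.5. *Arid3b* was at 0.546 to 0.795 TPM at P0, against 4.08 to 4.78 and 4.22 to 5.13 TPM at E13.5. *Slc2a3*, the high-affinity glucose transporter, had 1.76, 1.69, 1.45 and 1.76 TPM at P0, against 429.8, 358, 311 and 291 TPM in E13.5 libraries titled control and 258, 213, 234 and 218 TPM in those titled mutant, a change of -7.01 ± 0.11 and -6.44 ± 0.07 (adjusted p = 1.3e-10 and 2.1e-11). The zinc finger gene *Hic1* was at 0.0689 to 0.109 TPM at P0, against 63.4 to 115 TPM at E13.5. *Kcnip1*, a potassium channel partner, was at 0 to 0.0828 TPM at P0, against 46.8 to 87.8 TPM at E13.5. *Gabrp*, a GABA receptor subunit, was at 1.29 to 2.98 TPM at P0, against 103 to 158 and 101.2 to 139.9 TPM at E13.5.

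Of 20 imprinted growth genes tested, 11 were lower at P0, 10 of them under all 5 scalings. Among the 20, 3 passed the filter only through the E13.5 libraries. *Grb10*, the maternally expressed growth inhibitor, had 13.4, 13.3, 13.4 and 13.1 TPM at P0, against 220.0, 199, 208 and 195 TPM in E13.5 libraries titled control and 212, 213, 224 and 214 TPM in those titled mutant. The P0 libraries agreed within 13.1 to 13.4 TPM, and the change was -3.85 ± 0.05 and -3.92 ± 0.04 (adjusted p = 5.1e-11 and 1.8e-11). *Nnat*, a small membrane protein, had 0.951, 1.56, 1.77 and 2.1 TPM at P0, against 146, 195, 100.7 and 128 TPM in E13.5 libraries titled control and 214, 185, 249 and 248 TPM in those titled mutant. *Meg3*, a maternal noncoding RNA (chr12:109541001-109571726), was at 0.679 to 1.67 TPM at P0, against 33.2 to 67.9 and 35.1 to 60.9 TPM at E13.5. *Rian*, of the same cluster (chr12:109603940-109661716), was at 2.67 to 6.21 TPM at P0, against 72.7 to 96.9 and 66.9 to 82.4 TPM at E13.5. *Cdkn1c*, the inhibitor p57, changed by -2.88 ± 0.11 and -3.28 ± 0.07 (adjusted p = 1.4e-08 and 1.5e-09). *H19* and *Igf2*, neighbours on chromosome 7, did not follow. *H19* was higher at P0 under some scalings and not all 5, with 6453 to 7476 TPM at P0, against 2574 to 2786 and 2969 to 3558 TPM at E13.5. *Igf2* was not called, with 692 to 886 TPM at P0, against 387 to 496 and 541 to 684 TPM at E13.5, although its P0 values lay above all E13.5 values. Reads of *H19* and of *Gm27786*, a transcript of 70 bases within it on the opposite strand, cannot be told apart without strand, and *Gm27786* ranged from 9800 to 20595 TPM at P0 and from 0 to 22744 TPM at E13.5.

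Of 23 Hox genes tested, 16 were lower at P0, 10 of them under all 5 scalings, and *Hoxc13*, a regulator of hair and nail keratins, was higher, at 6.97 to 9.79 TPM at P0, against 3.02 to 3.68 and 1.27 to 2.15 TPM at E13.5. The list median was -1.20 and -1.48, and 1 of the 23 genes tested passed the filter only through the E13.5 libraries. *Hoxc5* had 6.3, 7.69, 6.56 and 6.55 TPM at P0, against 43.1, 46, 42.8 and 40.4 TPM in E13.5 libraries titled control and 53.6, 51.4, 60.5 and 57.7 TPM in those titled mutant. *Hoxa5* changed by -2.13 ± 0.13 and -2.28 ± 0.10 (adjusted p = 3.2e-07 and 5.6e-08), and *Hoxa6* by -2.23 ± 0.12 and -2.58 ± 0.10 (adjusted p = 1.3e-07 and 3.0e-08). The summed Hox level was 221 to 266 TPM at P0, against 620 to 706 TPM and 751 to 780.3 TPM at E13.5.

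Housekeeping lists differed in how they moved. None of 77 ribosomal protein genes, 40 nuclear genes of oxidative phosphorylation, 11 mitochondrially encoded genes or 22 cholesterol synthesis genes was called by limma in both comparisons. At an unadjusted p under 0.05 in both comparisons, 23 ribosomal protein genes were higher and 9 lower, 5 oxidative phosphorylation genes were higher and 27 lower, 6 mitochondrially encoded genes were lower and 13 cholesterol genes were higher. Over all genes the unadjusted p was not counted. At the limma adjusted p alone, a stricter threshold, 2910 of all 13312 genes were higher and 7049 lower in both comparisons. The counts over all genes at the unadjusted p are at least as large, so these list counts do not set the lists apart. The medians of the 4 lists were 0.03 and 0.13, -0.26 and -0.20, -0.29 and -0.45, and 0.64 and 0.30. Under median-of-ratios scaling 5 cholesterol synthesis genes were called higher, and the median of that list was 0.96 and 0.68. The ribosomal *Rplp1* was at 4946 to 5186 TPM at P0, against 5716 to 6231 TPM at E13.5, and the mitochondrial *mt-Co1* at 6025 to 7671 TPM at P0, against 6118 to 8075 TPM at E13.5. Of 25 ribosome assembly genes, 5 were lower, against 11.8% of all genes, and no such call held under all 5 scalings. For 24 of the 25 every P0 library lay below every E13.5 library. That separation was not counted over all genes, so it does not set the list apart. The list median of -0.83 and -0.76 became -0.49 and -0.38 under median-of-ratios scaling. The list summed to 3281 to 3470 TPM at P0, against 6503 to 6981 TPM and 6149 to 6529 TPM at E13.5. *Npm1*, nucleophosmin, was at 1082 to 1143 TPM at P0, against 2702 to 2951 and 2443 to 2696 TPM at E13.5. Of 24 chromatin regulators 2 were lower, 1 of them under all 5 scalings, a share no higher than the 11.8% of all genes. Of 14 histone and other RNAs without a poly(A) tail 6 were higher, and 2 of the 14 passed the filter only through the P0 libraries. Of 19 glycolysis genes tested, 3 were higher and 1 lower, against 10.6% and 11.8% of all genes. The list summed to 3963 to 5277 TPM at P0, against 6515 to 6945 TPM and 6658 to 7902 TPM at E13.5. Thus the sum was lower at P0 although more members were called higher. *Pfkp*, *Hk1* and *Aldoc* were the higher genes. *Ldhb* was lower, at 89.2 to 99.3 TPM at P0, against 313 to 327 and 254 to 262 TPM at E13.5. In fatty acid synthesis the desaturase *Scd1* was at 23.9 to 47.5 TPM at P0, against 0.74 to 1.05 and 1.23 to 2.4 TPM at E13.5. The desaturase *Fads2* was at 3.84 to 6.24 TPM at P0, against 17.5 to 24.5 and 19.7 to 30.9 TPM at E13.5. Of 12 heat shock genes 4 were lower, 3 under all 5 scalings, and the list summed to 4073 to 4500 TPM at P0, against 7714 to 8537 TPM and 7450 to 7984 TPM at E13.5. The chaperone *Hsp90aa1* was at 166 to 199 TPM at P0, against 525 to 579 and 466 to 534 TPM at E13.5. *Hspd1* was at 229 to 248 TPM at P0, against 708 to 745 and 639 to 692 TPM at E13.5. *Hsph1* was at 24.8 to 38 TPM at P0, against 145 to 212 and 165 to 211 TPM at E13.5. Among 20 antioxidant genes *Txnrd1*, thioredoxin reductase, was lower, with 451 to 1287 TPM at P0, against 4099 to 5291 and 2205 to 4706 TPM at E13.5. The glutathione transferase *Gsta4* was lower, with 19.4 to 37.8 TPM at P0, against 98.2 to 166 and 161 to 176 TPM at E13.5, and the sulfiredoxin *Srxn1* was higher. In the retinoid pathway the binding protein *Crabp1* was lower, with 0.0529 to 0.364 TPM at P0, against 7.42 to 33 TPM at E13.5. Its relative *Crabp2* was higher, with 14 to 19.3 TPM at P0, against 2.09 to 4.25 TPM at E13.5. *Stra6*, the retinol receptor, and *Rarb* were lower. Of the 11 retinoid genes tested, 3 passed the filter only through the E13.5 libraries.

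Immediate early genes, transcription factors and phosphatases that cells switch on within minutes of a stimulus, were higher in the P0 keratinocytes. Of 22 tested, 4 of which passed the filter only through the P0 libraries, 18 were higher and *Myc* was lower. *Fos* had 785, 2145, 1928 and 373 TPM at P0, against 13, 16.7, 10.6 and 9.88 TPM in E13.5 libraries titled control and 17.8, 17.9, 15.9 and 13.53 TPM in those titled mutant. *Fosb* had 80.7, 374, 322 and 66.6 TPM at P0, against 0.172, 0.225, 0.167 and 0.152 TPM in E13.5 libraries titled control and 0.0372, 0.104, 0.038 and 0.0381 TPM in those titled mutant. *Egr1* had 217, 767, 657 and 104.9 TPM at P0, against 3.49, 10.6, 1.91 and 2.52 TPM in E13.5 libraries titled control and 2.74, 2.87, 1.81 and 2.04 TPM in those titled mutant. Replicates 2 and 3, the *K14-Cre* carriers, were the highest P0 libraries for all 3 genes, and replicate 4 the lowest. *Egr3* did not show that split, with 42.1, 47.8, 41.8 and 44.8 TPM at P0, against 0, 0, 0.0288 and 0 TPM in E13.5 libraries titled control and 0 TPM in those titled mutant. The list summed to 2943, 7698, 6758 and 1761 TPM in P0 replicates 1 to 4, against 506 to 587 TPM in the libraries titled control and 458 to 483 TPM in those titled mutant. With the *K14-Cre* carriers alone 18 genes were higher, and with the other 2 P0 libraries alone 14. *K14-Cre* and any other difference between these pairs of libraries cannot be told apart. Of 16 tested interferon and antigen presentation genes, 6 were higher, 5 of them under all 5 scalings, and 3 of the 16 passed the filter only through the P0 libraries. Among them, *H2-D1* was at 95.9 to 142 TPM at P0, against 37.9 to 41.9 and 40.4 to 42.7 TPM at E13.5.

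Markers of other cell types differed with stage too. Of 15 tested myeloid markers 14 were higher at P0, 11 passing the filter only there, and the 17 genes summed to 440.4 to 660.2 TPM at P0, against 17.7 to 33.4 TPM and 24.0 to 30.1 TPM at E13.5. *Tyrobp*, a myeloid adaptor, had 89.2, 113, 90.2 and 83.6 TPM at P0, against 0.103, 0.103, 0.707 and 0.998 TPM in E13.5 libraries titled control and 0.114, 0.982, 0.236 and 0.816 TPM in those titled mutant. *C1qa*, made by macrophages, was at 56.4 to 97.2 TPM at P0, against 0.0449 to 0.898 TPM at E13.5, while the Langerhans marker *Cd207* did not exceed 0.309 TPM in any library. Of 7 tested T cell markers, of which 5 passed the filter only through the P0 libraries, 6 were higher and *Lck* was lower, though not under all 5 scalings. *Cd3g*, a T cell receptor subunit, was at 6.28 to 15.9 TPM at P0, and the chemokine *Xcl1* at 5.42 to 6.96 TPM. Both are listed at 0 in all 8 E13.5 libraries. Melanocyte markers summed to 362 to 468 TPM at P0, against 130 to 163 TPM and 108 to 111 TPM at E13.5. *Dct*, a melanin enzyme, was at 163 to 207 TPM at P0, against 22.1 to 37.5 TPM at E13.5. Fibroblast markers summed to 625 to 746 TPM at P0, against 560.4 to 616 TPM and 605 to 676 TPM at E13.5, although only 3 of the 15 had a higher mean at P0. Of 8 tested, 1 was higher and 3 were lower, namely *Fbn1*, *Col3a1* and *Col1a1*, with 1 of the 3 lower under all 5 scalings. Of the 8, 1 passed the filter only through the E13.5 libraries. The fibrillin *Fbn1* was lower, with 0.6 to 1.24 TPM at P0, against 4.69 to 6.47 TPM at E13.5, and the collagen *Col6a1* was higher, with 6.73 to 14 TPM at P0, against 0.802 to 1.54 and 0.973 to 5.66 TPM at E13.5. Erythroid markers ranged from 61.3 to 1274 TPM at P0 and from 86.9 to 736 TPM at E13.5, and *Hbb-y*, the embryonic β-globin, was at 0 to 0.144 TPM at P0, against 38.3 to 323 TPM at E13.5. Endothelial, muscle, neuronal and Merkel markers summed to at most 38.6 TPM in any library. The defining keratinocyte markers summed to 31086 to 36107 TPM at P0, against 5995 to 6761 TPM and 6105 to 7347 TPM at E13.5. The part of these cells in the changes of other genes was not tested.

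**Figure D5:**
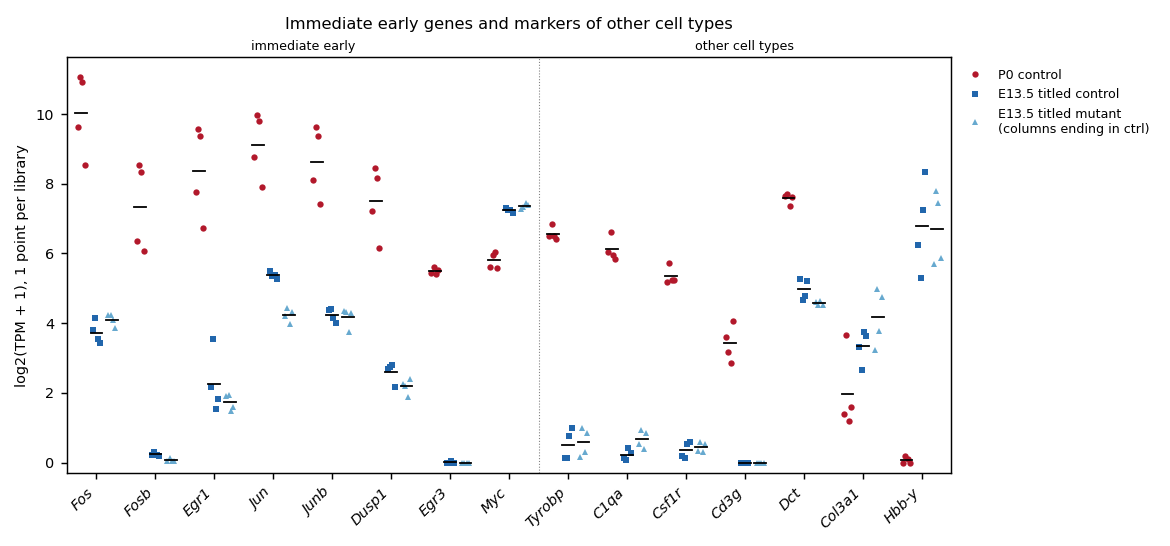
Log2(TPM + 1) of immediate early genes and of markers of other cell types in each library, with P0 controls left, E13.5 libraries titled control in the middle and those titled mutant right, and black bars at group means. *Fos*, *Fosb* and *Egr1* spread among the P0 libraries and *Egr3* does not, the myeloid genes *Tyrobp*, *C1qa* and *Csf1r* lie near 0 at E13.5, and the embryonic globin *Hbb-y* lies near 0 at P0.

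The result depended on which E13.5 set was used for 1016 genes, called in only 1 comparison or in opposite directions, and the 2 E13.5 sets differed from each other at an adjusted p of at most 0.05 in 531 of these. The genes with opposite calls were *Ms4a10*, *Zfp365* and *Abcb1b*. *Ms4a10* had 3.71, 5.71, 7.84 and 4.31 TPM at P0, against 12, 10.9, 17 and 20.0 TPM in E13.5 libraries titled control and 0.187, 0.268, 0.0643 and 0.73 TPM in those titled mutant. *Zfp365* changed by -1.05 ± 0.16 and 2.33 ± 0.12 (adjusted p = 1.5e-04 and 1.2e-07). The transporter *Abcb1b* changed by -1.57 ± 0.25 and 1.80 ± 0.24 (adjusted p = 2.3e-04 and 7.8e-05). The change of *Zfp365* against the libraries titled control was -0.95 without E13.5 titled control replicate 3 and -0.98 without replicate 4, both under the 2-fold threshold. *Cpt1c*, a brain-type carnitine palmitoyltransferase, was at 1.9 to 4.03 TPM at P0, against 39 to 51 and 2.183 to 3.56 TPM at E13.5, so that P0 lay among the libraries titled mutant. Several of the largest changes belong to short transcripts within other genes, where FPKM is unreliable. *Gm44323* spans 129 bases of *Krt5* on the opposite strand and had 25953 to 29250.0 TPM at P0, against 3176 to 3919.7 and 3361 to 4472 TPM at E13.5. *Gm23134* spans 87 bases within *Nnat* and *Blcap* and is listed at 0 in the P0 libraries, against 1519.6 to 5118 TPM at E13.5. *Gm25777* spans 126 bases within *Ranbp1*, *Gm27861* 214 bases within *Hotairm1*, and *Gm23306* lies beside the stefin genes. Reads of such overlapping pairs cannot be assigned with certainty.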

How the data were processed

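No source used here names the library kit, aligner, counting or strand setting. The study's methods name the QuickNGS workflow, and the submitters' processing notes name FastQC 0.11.5, bcl2fastq 2.17.1.14 and 2.18.0.12, and the mm10 genome. RNA of both stages was extracted with RNeasy kits. The values deposited by the authors are FPKM per Ensembl gene, in one table per stage with 49452 genes each, which were joined by Ensembl gene ID. Symbols came from the tables for 20695 genes and from the reference table for 28503.

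FPKM of each library were rescaled to a common sum (TPM), and log2(TPM + 1) was tested with limma 3.58.1 (R 4.3.3; mean trend, Benjamini-Hochberg adjustment over all genes tested) for the 4 P0 controls against the 4 E13.5 libraries titled control, and again against the 4 titled mutant. The 2 tables were processed separately, so that levels set across them rest on this rescaling, and 4 other scalings were run. Genes with at least 1 FPKM in 4 of the libraries compared were tested. Ratios of 2 keratins within a library were compared by exact two-sided permutation tests. The limma step was checked on made-up data with known changes. Promoters came from RefSeq (GRCm38.p6), as the first listed promoter of each symbol, and coordinates of genes from the tables (mm10). Python 3.11.15 with pandas 2.3.3, numpy 2.4.6, scipy 1.17.1 and matplotlib 3.10.9 did the rest. Alternatives covered scaling, pseudocount, filter, threshold, mean trend, replicate block, each library left out, P0 controls with or without *K14-Cre*, and the libraries whose column carries the number 67.

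The members and gene lists were chosen with earlier results of these data known. Named genes are the 10 largest changes in each direction held in both comparisons without overlap, up to 4 held members of each list (or its 2 most abundant), the 10 most abundant genes of each stage, genes called in 1 comparison only, and a fixed set of keratins and markers. The genes *Blcap*, *Cd207*, *Cdk1*, *Cldn1*, *Csf1r*, *Dsc2*, *Grhl3*, *H19*, *Hotairm1*, *Hoxc13*, *Itga6*, *Itgb4*, *Klf4*, *Lck*, *Myc*, *Ranbp1*, *Stfa1*, *Tgm1* and *Ugcg*, and some genes drawn in plots, fall outside this rule and were chosen after their values were seen. A few genes that the rule picked are not reported here. Depth is known only as a ratio between libraries, and no counting error could be given.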

Additional observations from a re-analysis of the deposited data

Results flagged for a closer look

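In a group of 4 libraries, the highest or lowest one was set apart where its gap to the next passed the critical value of Dixon's test. For the 179 genes named, 26 groups met this. Groups with no value of at least 1 TPM or with no spread were left out, so fewer than 537 groups were checked. Chance alone meets the rule in about 1 in 20 groups. Among the P0 controls, the library above the others was replicate 1 with 199 TPM for *Hsp90aa1*, replicate 2 with 2.84 TPM for *Cldn3*, 52.4 TPM for *Csf1r* and 7.89 TPM for *Zfp365* and replicate 4 with 7.79 TPM for *Cldn23*, 3.87 TPM for *Cldn8*, 12.1 TPM for *Sass6* and 1066 TPM for *Stfa1*. Among the P0 controls, the library below the others was replicate 1 with 12.7 TPM for *Mcm10* and 57.0 TPM for *Sprr1a*, replicate 2 with 293 TPM for *Dsc3* and 64.9 TPM for *Ptgs1* and replicate 4 with 7.73 TPM for *Dkk4* and 16.1 TPM for *Tbx1*. Among the E13.5 libraries titled control, the library above the others was replicate 3 with 2.48 TPM for *Srxn1* and replicate 4 with 4.54 TPM for *Lgals3*. Among the E13.5 libraries titled control, the library below the others was replicate 2 with 2.33 TPM for *Krt6a* and replicate 4 with 74.3 TPM for *Bub1*, 98.2 TPM for *Gsta4*, 304 TPM for *Hmga2* and 3.25 TPM for *Pfkp*. Among the E13.5 libraries titled mutant, the library above the others was replicate 2 with 1.19 TPM for *BC117090*, replicate 3 with 224 TPM for *Grb10* and replicate 4 with 5916 TPM for *Rplp1*. Among the E13.5 libraries titled mutant, the library below the others was replicate 2 with 42.5 TPM for *Blcap* and replicate 3 with 0 TPM for *Gm27786*. 

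The change at P0 also depended on the E13.5 set, with a difference between the sets at an adjusted p of at most 0.05 in limma. The log2 fold change against the libraries titled mutant minus that against the libraries titled control was 3.38 for *Abcb1b*, -0.16 for *Blcap*, 3.11 for *Cdkn1a*, -1.20 for *Cenpj*, -0.60 for *Cldn1*, 3.59 for *Cpt1c*, -0.39 for *Mki67*, 3.59 for *Ms4a10* and 3.38 for *Zfp365*. These values come from the 2 E13.5 sets alone, since both comparisons share the P0 libraries. No explanation was tested.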

How the results depend on the processing

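Pairs of counts are genes higher and then lower at P0. With FPKM as deposited, 1255 genes were lower against the libraries titled control, 1262 against those titled mutant and 991 in both, and with median-of-ratios scaling 1036, 1053 and 811. With a mean TPM of at least 5, genes higher numbered 1074, 1005 and 914. With a log2 fold change of at least 2, 760 were higher and 312 lower against the libraries titled control, 736 and 326 against those titled mutant, and 677 and 228 in both. With the adjusted p alone they numbered 3320 and 7567, 3200 and 7962, and 2910 and 7049. In both comparisons, a pseudocount of 0.1 gave 1548 and 1889 genes, no filter 1618 and 1688, no mean trend 1414 and 1571, and scaling without genes spanning under 300 bases, chosen after seeing the data, 1428 and 1553. The P0 carriers of *K14-Cre* alone gave 1420 and 1691, the non-carriers 1413 and 1477, and the set without column number 67 gave 1402 and 1619. Leaving out 1 library at a time gave 1603 to 1638 higher and 1829 to 2039 lower against the libraries titled control, 1509 to 1563 and 2013 to 2260 against those titled mutant, and 1391 to 1425 and 1516 to 1716 in both, and 2876 to 2965 of the 2986 genes kept their call. The replicate numbers did not pair the libraries (correlations of -0.12 to 0.09 between libraries with the same number), and a replicate block gave 1415 and 1573 genes in both.

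The keratin ratios were recomputed with a pseudocount of 0.1 and with libraries left out, not under the scalings. With a pseudocount of 0.1 all 12 differences kept their direction and side of the threshold, and with 1 library left out 11 kept their direction, while that of *Krt15* to *Krt14* against the libraries titled control, which was not called, ranged from -0.03 to 0.14. None of the named genes reversed. Leaving out 1 library leaves 3 against 4, where the exact test cannot reach 0.05, so those ratios are values with no test. The cause of the moves between scalings was not tested. Low genes are limited by depth: FPKM of genes near 0 rest on few reads, and a value of 0 says only that a gene is listed at 0.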
